A study of Mus musculus with 12 samples.

Results

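Aff3 is a coding gene and Gm16152 a long non-coding RNA (lncRNA) that lies inside it on the opposite strand. Each was read by 1 probe on arrays of mouse aortic smooth muscle cells (SMC). The probes, ASMM10AP1B122642423V4 for Aff3 and ASMM10LNC1A101133385V4 for Gm16152, made up 2 of the 60641 in the deposited value table. Both probes were chosen by name from transcripts that the study lists as changed between siOCT4-DMSO and siNT-DMSO, so their values in that comparison are a description and were not tested. Primary mouse aortic SMC were transfected for 48 hours with an siRNA against Oct4 (siOCT4) or a non-target siRNA (siNT), in medium without serum, and then received 10 µg/mL POVPC in DMSO or DMSO alone for 24 hours. Each siRNA was combined with each treatment on 3 arrays, and the 4 groups are called siNT-DMSO and siNT-POVPC for the non-target siRNA and siOCT4-DMSO and siOCT4-POVPC for the siRNA against Oct4. The labels do not state whether the replicates came from separate cultures, so the p-values measure the spread between these samples, which may be technical.

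Aff3 belongs to the AF4/FMR2 family of nuclear proteins, scaffold components of the super elongation complexes that help RNA polymerase II leave its paused state and elongate. Family members are known as fusion partners in leukaemia, and Aff3 is best known from lymphoid and neural tissue. Antisense lncRNAs lie on the strand opposite a coding gene and can act on it, on distant genes, or have no known role, and no function is established here for Gm16152. Oct4, encoded by Pou5f1, is a POU-domain transcription factor of pluripotent cells that binds the octamer motif and is also reactivated in SMC of atherosclerotic lesions. POVPC is an oxidized phospholipid found in such lesions.

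The study's lists place Aff3 (ENSMUST00000095027) on the minus strand of chromosome 1, chr1:38177326-38627185. This interval lies inside the Aff3 gene of RefSeq's GRCm38.p6 table, chr1:38175393-38630178. Gm16152 (ENSMUST00000131663) is an RNA of 872 bases from chr1:38388829-38390244 on the plus strand, listed as intronic antisense, and starts 238.4 kb from the listed start of Aff3. A longer Gm16152 transcript (ENSMUST00000143261, 1189 bases) spans chr1:38384949-38393974 around it. A further lncRNA of the plus strand, Gm16150 (ENSMUST00000133299, 673 bases), lies at chr1:38239700-38246666, towards the 3′ end of Aff3. The last 2 transcripts are not part of the pair and are described as its surroundings. The study lists them for a change in siOCT4-DMSO vs siNT-DMSO too. The labels do not state whether the random-primed labelling kept the strand, and whether unspliced Aff3 RNA gave signal at the antisense probes was not tested.

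**Figure D1:**
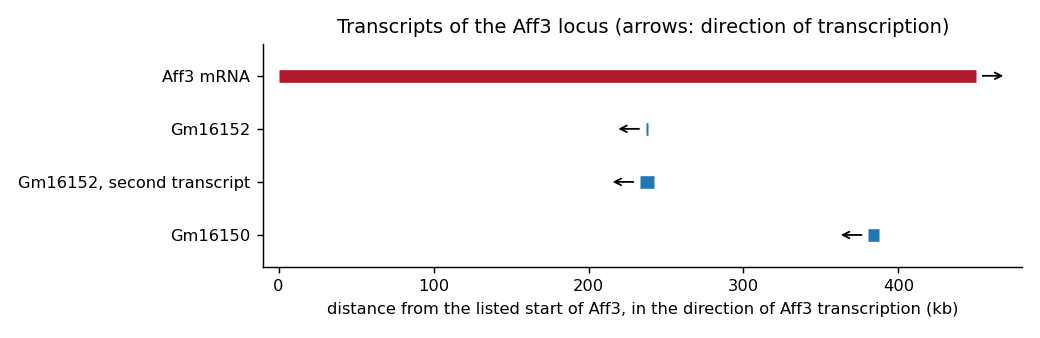
Map of the listed transcripts of the Aff3 locus, with the distance from the listed start of Aff3 in kb on the horizontal axis and 1 transcript per line; arrows give the direction of transcription. The 3 lncRNA transcripts run against Aff3 and lie between 233.2 and 387.5 kb from its start.

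Promoter sequences are shown for the 2 genes of the locus with an entry in RefSeq's promoter table, Aff3 and Gm16150, and Gm16152 had none. Each is the 250 bases before the transcription start given there, read 5′ to 3′ on the gene's own strand in GRCm38.p6, with each CG in capitals. The Aff3 window is chr1:38627245-38627494 on the minus strand, just before the Aff3 start listed by the study and within the longer RefSeq gene interval, so it is not the sequence before that interval's outer end. The Gm16150 window is chr1:38219052-38219301 on the plus strand, directly before the RefSeq gene interval, whose start lies upstream of the transcript listed by the study.
Aff3: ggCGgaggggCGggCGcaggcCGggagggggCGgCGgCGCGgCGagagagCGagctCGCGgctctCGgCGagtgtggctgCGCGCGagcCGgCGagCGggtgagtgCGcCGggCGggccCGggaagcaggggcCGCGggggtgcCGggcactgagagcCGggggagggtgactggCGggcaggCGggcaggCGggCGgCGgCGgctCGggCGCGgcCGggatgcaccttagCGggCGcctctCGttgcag
Gm16150: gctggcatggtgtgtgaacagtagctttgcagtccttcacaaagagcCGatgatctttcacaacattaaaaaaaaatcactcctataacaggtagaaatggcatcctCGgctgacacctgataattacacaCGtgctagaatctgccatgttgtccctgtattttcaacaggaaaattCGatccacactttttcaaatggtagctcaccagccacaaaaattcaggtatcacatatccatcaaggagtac
The Aff3 window was 82.0% G or C and held 41 CG pairs, and 1.09% of 32851 RefSeq promoter windows of the same length held as many. The Gm16150 window was 41.6% G or C and held 4, which 62.23% of windows reached. The octamer ATGCAAAT, searched on both strands (ATTTGCAT on the other), was in neither window and was in 526 of the 32851 windows (1.6%). No match says only that these letters are not within the window.

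Of the 60641 probes, 49015 to 55326 stood well above background on an array, and the fewest did so in siOCT4-POVPC (49015 to 49472). Arrays with the same scan identifier in the scanner output are called a slide here, which gave 2 slides. Group and slide nearly coincide. All 6 siNT arrays shared slide 1 with siOCT4-DMSO replicates 1 and 2, while the 3 siOCT4-POVPC arrays shared slide 2 with siOCT4-DMSO replicate 3. Pou5f1 had no named probe, so the loss of Oct4 was not checked here. Of 8 fixed SMC markers only Tagln and Smtn had a named probe, at normalized log2 signals of 3.99 to 5.54 and 4.38 to 5.54, well above background on 11 and 12 of the 12 arrays. Both stayed below the median of the deposited log2 values, which was 6.37. The fibroblast marker Pdgfra was at 2.69 to 4.65, which overlaps both ranges. No endothelial or macrophage marker of the 8 chosen had a named probe. The cell type was thus checked on few genes, and these levels do not establish it. Lower shares of a cell type and less RNA per cell cannot be told apart in such bulk samples.

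The Aff3 and Gm16152 probes were well above background on 12 of 12 arrays, and neither was saturated. The Aff3 spot had a processed signal, the intensity after background subtraction, of 39.8 to 50.7 in siNT-DMSO and 67.0 to 99.2 in siNT-POVPC. It was 138 to 286 in siOCT4-DMSO and 224 to 284 in siOCT4-POVPC, above local background medians of 16 to 22. These intensities are not scaled between arrays, and the values below are log2 intensities after quantile normalization, in which 1 unit is a doubling.

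Aff3 was low in cells with the non-target siRNA and higher on every array with siOCT4. In siNT-DMSO its normalized log2 signal was 5.71, 5.49 and 5.48, with a mean of 5.56 ± 0.13 (SD, n = 3). In siNT-POVPC it was 5.89, 5.88 and 6.19, with a mean of 5.99 ± 0.17 (SD, n = 3). The siNT arrays thus lay within a narrow range, with the POVPC arrays at its upper end. In siOCT4-DMSO it was 7.97, 8.18 and 7.01, with a mean of 7.72 ± 0.63 (SD, n = 3). In siOCT4-POVPC it was 8.08, 7.90 and 8.16, with a mean of 8.05 ± 0.13 (SD, n = 3). Replicate 3 of siOCT4-DMSO, the only array of its group on slide 2, was the lowest of the 6 siOCT4 arrays and still above every siNT array.

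Gm16152 had the same split between the siRNAs but a different order within them. In siNT-DMSO its normalized log2 signal was 5.82, 5.88 and 5.90, with a mean of 5.86 ± 0.04 (SD, n = 3). In siNT-POVPC it was 5.69, 5.67 and 5.83, with a mean of 5.73 ± 0.09 (SD, n = 3). These ranges overlapped, with the POVPC mean the lower. In siOCT4-DMSO it was 7.27, 7.49 and 7.64, with a mean of 7.47 ± 0.19 (SD, n = 3). In siOCT4-POVPC it was 7.79, 7.85 and 8.10, with a mean of 7.92 ± 0.17 (SD, n = 3). Replicate 3 of siOCT4-DMSO, lowest of its group for Aff3, was the highest of its group for Gm16152.

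**Figure D2:**
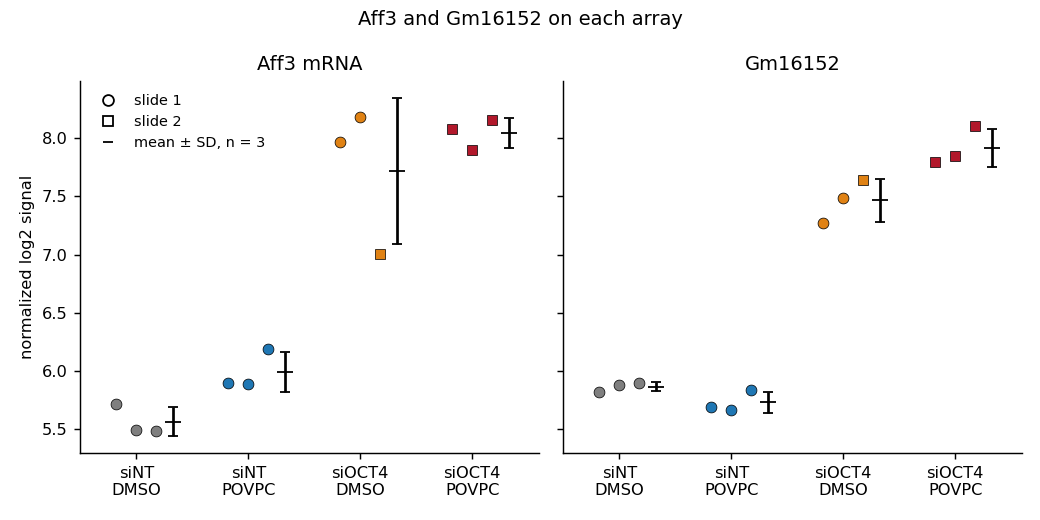
Normalized log2 signal of Aff3 and Gm16152 on each of the 12 arrays by group; circles are arrays of slide 1, squares arrays of slide 2, and bars the mean ± SD of 3 arrays. All siOCT4 arrays sit above all siNT arrays, and siOCT4-DMSO replicate 3 is at 7.01 for Aff3 and 7.64 for Gm16152.

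With 6 siOCT4 arrays set against 6 siNT arrays, neither probe overlapped. The lowest siOCT4 array was 0.82 above the highest siNT array on the log2 scale for Aff3 and 1.37 above it for Gm16152. Of the 54506 probes tested, 5.15% were higher on all siOCT4 arrays than on all siNT arrays. This split includes the comparison that chose the pair, so it is given as a description.

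In siOCT4-DMSO vs siNT-DMSO, the comparison that chose the pair, Aff3 was 4.46-fold higher, a log2 fold change of 2.16 (standard error [SE] 0.26). Gm16152 was 3.04-fold higher, a log2 fold change of 1.60 (SE 0.15). Neither probe's groups overlapped, and 10.2% of tested probes were higher in siOCT4-DMSO with no overlap. On the arrays of slide 1 alone, which leaves 2 siOCT4-DMSO arrays, the log2 fold changes were 2.51 for Aff3 and 1.52 for Gm16152. The value of Gm16152 was 1.40 when each array was scaled on its 75th percentile, a scaling that moved the median of all tested probes to -0.21. Relative to that median it was 1.61, whereas the 1.60 above is not taken relative to its own median of -0.06.

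The comparison of the siRNAs in POVPC, siOCT4-POVPC vs siNT-POVPC, used 6 arrays outside the comparison that chose the pair, and both transcripts rose in it. The choice was made with earlier results of these data known, so it may not be independent of these arrays. The spread in the main fit was estimated over all 12 arrays, including those of the comparison that chose the pair. Aff3 was upregulated 4.16-fold, a log2 fold change of 2.06 (SE 0.26, 95% interval 1.48 to 2.63, limma adjusted p = 0.000639). Gm16152 was upregulated 4.56-fold, a log2 fold change of 2.19 (SE 0.15, 95% interval 1.86 to 2.52, limma adjusted p = 1.1e-05). With only the groups compared in the fit, the limma adjusted p was 0.000412 for Aff3 and 0.000291 for Gm16152. Both were higher on 3 of 3 siOCT4-POVPC arrays than on every siNT-POVPC array, as were 18.4% of tested probes. Both passed the call, an adjusted p under 0.05 over all tested probes and a change of at least 1.5-fold, which 7.18% of tested probes passed as higher and 4.08% as lower. With 75th percentile scaling the calls were 3411 higher and 8614 lower in place of 3912 and 2225, and the median of all tested probes moved from -0.08 to -0.27. Aff3 was then at 1.97 and Gm16152 at 2.07. Only 1.12% of tested probes had a log2 fold change as high as Aff3, and 0.908% as high as Gm16152.

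In this comparison the slides also differ, since all siNT-POVPC arrays were on slide 1 and all siOCT4-POVPC arrays on slide 2. With slide as a block the log2 fold change of Aff3 was 3.13 (SE 0.27, limma adjusted p = 0.000151). That of Gm16152 was 1.93 (SE 0.25, limma adjusted p = 0.00112). With normexp background correction the log2 fold changes were lower, at 1.40 and 1.48. Over the 12 alternatives, of which 1 is the methods' test without adjustment, p ran from 8.05e-05 to 0.00889 for Aff3 and from 6.58e-06 to 0.00752 for Gm16152. The slide term rests on siOCT4-DMSO replicate 3, the only array that separates slide from group. That array belongs to the comparison that chose the pair, and no value within a slide can be had. With each array left out in turn, Aff3 lay between 2.00 and 2.16 and Gm16152 between 2.10 and 2.25, and neither lost its call.

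The 2 siRNA comparisons can be set side by side, although the first one chose the pair. The siRNA effect on Aff3 was 2.16 in DMSO and 2.06 in POVPC, a difference of -0.10 (SE 0.37) on the log2 scale. For Gm16152 it was 1.60 in DMSO and 2.19 in POVPC, a difference of 0.59 (SE 0.21). With slide as a block these differences were 0.61 and 0.41, and they were not tested.

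In the fit to all 12 arrays without slide as a block, neither transcript was called with POVPC under either siRNA. In siNT-POVPC vs siNT-DMSO, Aff3 had a log2 fold change of 0.42 (SE 0.26, 95% interval -0.15 to 1.00, limma adjusted p = 0.471) and was not called. Its POVPC arrays were all higher than its DMSO arrays, which 7.04% of tested probes showed. Gm16152 had -0.14 (SE 0.15, 95% interval -0.47 to 0.20, limma adjusted p = 0.698), and its groups overlapped. All 6 arrays of this comparison were on slide 1, and the siNT-DMSO arrays had also entered the comparison that chose the pair. Over all tested probes, 0.0055% (3 probes) were called higher, against 258 probes without siNT-DMSO replicate 1 and 229 without siNT-POVPC replicate 3.

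In siOCT4-POVPC vs siOCT4-DMSO, Aff3 had a log2 fold change of 0.32 (SE 0.26, 95% interval -0.25 to 0.90, limma adjusted p = 0.602), and its groups overlapped. Gm16152 had 0.45 (SE 0.15, 95% interval 0.12 to 0.78, limma adjusted p = 0.285) and was not called. Its siOCT4-POVPC arrays were all higher than its siOCT4-DMSO arrays, as for 12.9% of tested probes, while 0.00183% of tested probes were called higher. The siOCT4-DMSO arrays had also entered the comparison that chose the pair. For Aff3 the value turned on 1 array: without siOCT4-DMSO replicate 3 it was -0.032 (limma adjusted p = 0.953). With slide as a block it was 1.04 and called (limma adjusted p = 0.0201). That value is the difference, on slide 2, between the 3 siOCT4-POVPC arrays and siOCT4-DMSO replicate 3 alone. The fit with slide as a block called 2464 probes higher and 2641 lower, where limma without slide called 1 and 0. Over the 12 alternatives the p of Aff3 ran from 0.0201 to 0.711. At an unadjusted p under 0.05 the counts without slide were 1983 and 2922, and the methods' own test after adjustment called 0 and 3.

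**Figure D3:**
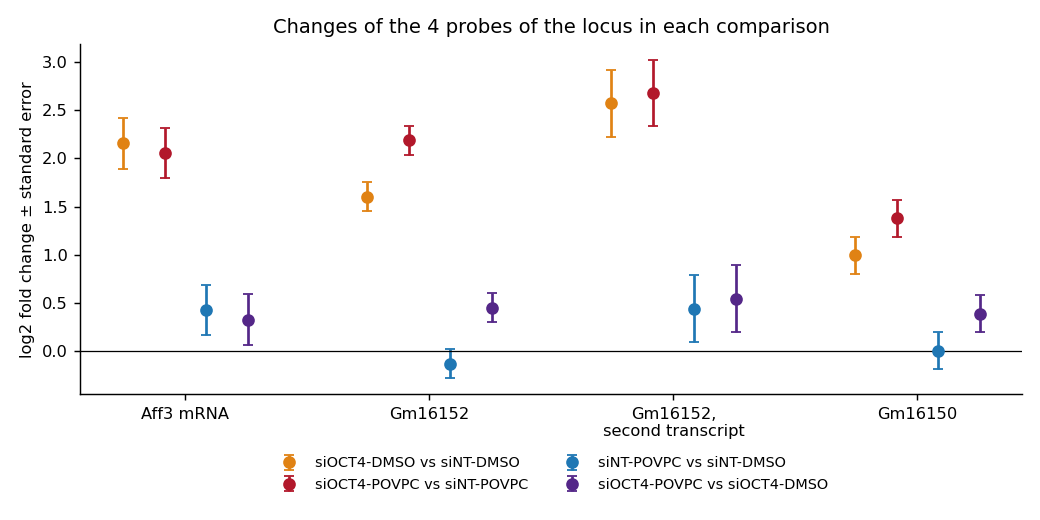
Log2 fold change with its standard error (vertical axis) of the 4 probes of the Aff3 locus in each of the 4 comparisons, from the limma fit to 12 arrays. The 2 siRNA comparisons lie between 0.99 and 2.68 for all 4 probes, and the 2 POVPC comparisons between -0.14 and 0.54.

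By mean level, siNT-DMSO was the lowest group for Aff3, followed by siNT-POVPC, then siOCT4-DMSO and, highest, siOCT4-POVPC. For Gm16152 the lowest was siNT-POVPC, followed by siNT-DMSO, and the siOCT4 groups stood in the order of Aff3. By these means, only the step from the siNT to the siOCT4 groups exceeded 1.5-fold for either transcript. In the fit to all 12 arrays without slide, no step between neighbours with the same siRNA was called. With slide as a block Aff3 was called between the siOCT4 groups, a value that rests on siOCT4-DMSO replicate 3 as its only DMSO array.

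The longer Gm16152 transcript and Gm16150 also had higher signal on every siOCT4 array. The longer transcript was at 5.63, 5.16 and 5.01 in siNT-DMSO and at 5.43, 5.89 and 5.80 in siNT-POVPC. It was at 8.55, 8.05 and 6.92 in siOCT4-DMSO and at 8.26, 8.33 and 8.56 in siOCT4-POVPC. As for Aff3, siOCT4-DMSO replicate 3 was the lowest siOCT4 array. Gm16150 was at 5.61, 5.34 and 5.56 in siNT-DMSO and at 5.27, 5.35 and 5.89 in siNT-POVPC. It was at 6.60, 6.66 and 6.23 in siOCT4-DMSO and at 6.81, 6.90 and 6.92 in siOCT4-POVPC. The gap between the lowest siOCT4 and the highest siNT array was 1.04 for the longer transcript and 0.35 for Gm16150, the narrowest of the locus.

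In siOCT4-POVPC vs siNT-POVPC the longer Gm16152 transcript rose 6.40-fold, a log2 fold change of 2.68 (SE 0.35, limma adjusted p = 0.000685). Gm16150 rose 2.6-fold, a log2 fold change of 1.38 (SE 0.19, limma adjusted p = 0.0011). The log2 fold changes were 4.05 and 1.77 with slide as a block, and 1.82 and 0.76 with normexp background correction. In siOCT4-DMSO vs siNT-DMSO, for which they were listed, their log2 fold changes were 2.57 (SE 0.35) and 0.99 (SE 0.19), without a test. In the fit to all 12 arrays without slide, neither was called in either POVPC comparison. Their values there were 0.44 and 0.00 in siNT cells and 0.54 and 0.38 in siOCT4 cells. As for Aff3, the siOCT4 value of the longer transcript turned on the DMSO arrays, at 0.086 without siOCT4-DMSO replicate 3 and 0.90 without replicate 1. The longer transcript was called in siOCT4 cells with slide as a block, at 1.46 (limma adjusted p = 0.0211, with p over the 12 alternatives from 0.0211 to 0.641). Gm16150 was at 0.65 in that fit and was not called. Both values set the siOCT4-POVPC arrays against siOCT4-DMSO replicate 3 alone.

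**Figure D4:**
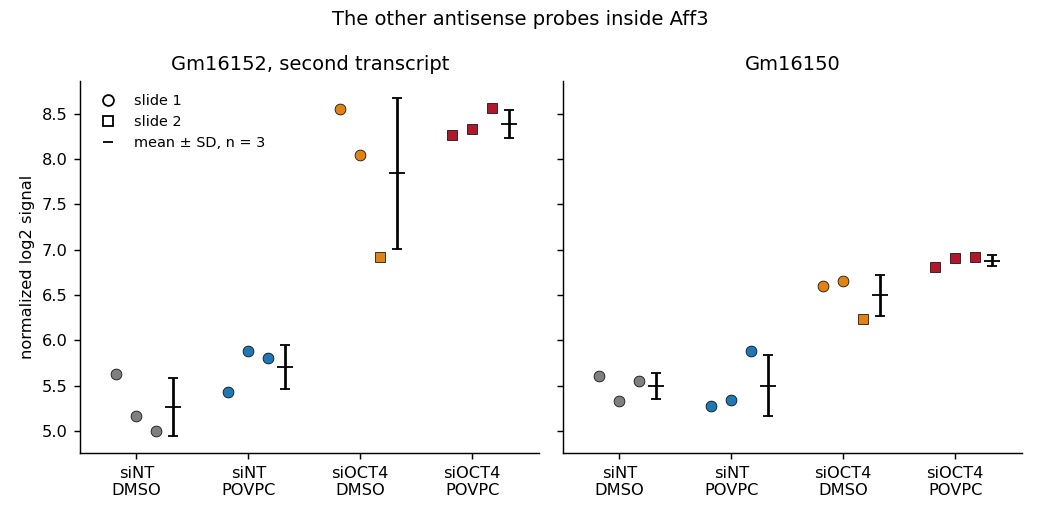
Normalized log2 signal of the longer Gm16152 transcript and of Gm16150 on each of the 12 arrays by group; circles are arrays of slide 1, squares arrays of slide 2, and bars the mean ± SD of 3 arrays. In siOCT4-DMSO, replicate 3 lies lowest at 6.92 and 6.23.

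The antisense probes differed in how they followed Aff3 on siOCT4-DMSO replicate 3. On that array Aff3 was lower than the mean of replicates 1 and 2 by a log2 difference of -1.07, the longer Gm16152 transcript by -1.37 and Gm16150 by -0.39. Gm16152 differed by 0.26 in the opposite direction. The median absolute difference over all tested probes was 0.43. The 2 Gm16152 transcripts overlap on the genome but were read by separate probes, and on this array their probes moved in opposite directions.

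Across the arrays, Aff3 and Gm16152 formed 2 separate clusters by siRNA, so no correlation over the 12 arrays was tested. For each siRNA the DMSO and POVPC arrays were pooled and permuted together, so r also reads any difference between the treatments. Within the 6 siNT arrays Pearson's r was -0.50 (exact permutation p = 0.303, adjusted p = 0.449) and Spearman's rho -0.6 (exact permutation p = 0.242, adjusted p = 0.726). Without the 2 arrays farthest from the median of Gm16152 r was -0.69. Within the 6 siOCT4 arrays r was 0.13 (exact permutation p = 0.806, adjusted p = 0.806) and rho 0.03 (exact permutation p = 1, adjusted p = 1), and r was 0.03 without the 2 farthest arrays. The siNT value turned on siNT-POVPC replicate 3, without which r was -0.97 over the other 5 arrays, given as a description of an array left out after its values were seen. It was -0.11 with 75th percentile scaling and -0.86 with normexp background correction. The siOCT4 value was -0.12 without siOCT4-POVPC replicate 3. Neither relation passed with all 6 arrays, and the siNT value is too unsettled to give its size. As a description, the deviations of the 12 arrays from their group means had an r of -0.32, which became 0.58 without siOCT4-DMSO replicate 3, so its sign rests on 1 array.

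**Figure D5:**
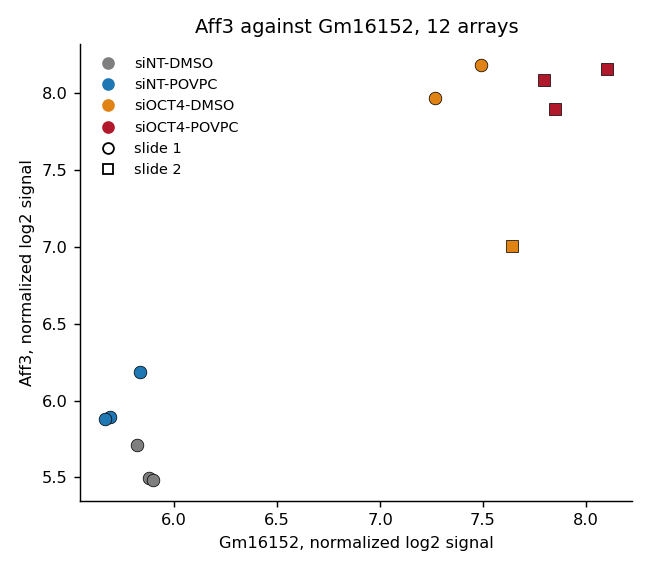
Aff3 against Gm16152, both as normalized log2 signal, for the 12 arrays; colours give the group and symbols the slide. The siNT and siOCT4 arrays form separate clusters, with no clear trend inside either, and siOCT4-DMSO replicate 3 stands below the other siOCT4 arrays at 7.01 for Aff3.

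The other antisense probes gave 4 more relations with Aff3, and p-values were adjusted over all 6. For the longer Gm16152 transcript r was 0.82 in siNT arrays (exact permutation p = 0.0542, adjusted p = 0.242) and 0.90 in siOCT4 arrays (exact permutation p = 0.121, adjusted p = 0.242), with rho of 0.71 (exact permutation p = 0.136) and 0.26 (exact permutation p = 0.658). For Gm16150 r was 0.44 (exact permutation p = 0.374, adjusted p = 0.449) and 0.83 (exact permutation p = 0.0958, adjusted p = 0.242), with rho of 0.14 (exact permutation p = 0.803) and 0.43 (exact permutation p = 0.419). None passed. Without the 2 arrays farthest from the median, the siOCT4 values became -0.77 and -0.42. The siNT values became 0.35 and -0.18. Leaving out the extreme arrays also narrows the range, so these values do not decide what the relations rest on. As a description, the deviations of the 12 arrays from their group means had an r with Aff3 of 0.83 for the longer transcript and 0.72 for Gm16150. Without siOCT4-DMSO replicate 3 these were 0.28 and 0.70.

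Likeness to each of the pair was described by Pearson's r over the 12 arrays, which mostly reads the shared siRNA split, among probes with a known name. Of 389 named lncRNA probes, the 5 most like Aff3 were the longer Gm16152 transcript (r = 0.99), 4931431B13Rik (r = 0.97), AK021278 (r = 0.97), Gm16150 (r = 0.96) and Gm17546 (r = 0.96). Both of the other antisense probes of the locus were therefore among them. Over all tested probes, 0.0478% had an r with Aff3 as high as the longer Gm16152 transcript, 0.654% as high as Gm16150 and 1.94% as high as Gm16152, whose r was 0.93. Of 921 named mRNA probes the most like Aff3 were Lima1, an actin-binding protein (r = 0.99), Kif3c, a kinesin motor (r = 0.97), Dtx3, a Deltex family ubiquitin ligase (r = 0.96), Tmcc1 (r = 0.96) and Pdgfc, a platelet-derived growth factor (r = 0.96). Their log2 fold changes in siOCT4-POVPC vs siNT-POVPC were 0.78, 1.15, 2.19, 1.44 and 1.63.

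For Gm16152 the most alike of 922 named mRNA probes were Tfap2a, an AP-2 transcription factor (r = 0.99), Il7, a lymphoid cytokine (r = 0.99), Kcnq1, a potassium channel subunit (r = 0.99), Slfn5 (r = 0.98) and Psmd11, a proteasome subunit (r = 0.98). Among 388 named lncRNA probes they were uc.7 (r = 0.99), Gm15589 (r = 0.98), Gm28821 (r = 0.98), 4931431B13Rik (r = 0.98) and Gm11915 (r = 0.97). The lncRNA 4931431B13Rik was the only name on the lists of both transcripts. Nearly all names come from the study's lists of changed transcripts, so these probes are not a neutral sample of the array.

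Of the 13 chosen AF4/FMR2 family and super elongation complex genes and the 16 protein-coding neighbours of Aff3 chosen by symbol, none had a named probe. Outside that list, 1 named probe lay near Aff3, that of the lncRNA Gm5099 at chr1:38132083-38159892 beyond the 3′ end of Aff3, chosen after its values were seen. Its mean normalized log2 signal in DMSO was 6.99 with siNT and 7.21 with siOCT4, and in POVPC it was 7.97 with siNT and 7.23 with siOCT4. It did not share the rise of Aff3: in siOCT4-POVPC vs siNT-POVPC its log2 fold change was -0.74 (SE 0.26, limma adjusted p = 0.0898). That missed the threshold. The adjusted p from limma was 0.0454 with 75th percentile scaling, 0.0245 with slide as a block and 0.0384 without siOCT4-DMSO replicate 3, and over the 12 alternatives p ran from 0.0245 to 0.136.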

How the data were processed

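Total RNA of 12 samples was hybridised in 1 colour (Cy3) to Arraystar mouse lncRNA arrays. The authors deposited Agilent Feature Extraction 11.0.1.1 output (version from the submitters' processing notes), in which the processed signal is the spot intensity less background, together with a quantile-normalized log2 table. Here 80 outlier spots were left out, signals under 5 were set to 5, and log2 values were quantile normalized in R 4.3.3 with limma 3.58.1. The 54506 probes that 3 or more arrays marked as well above background were fitted with a mean for each of 4 groups, with Benjamini-Hochberg adjustment over all of them. The fit was tested on simulated data.

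The files hold no gene names. The 4 probes of the locus were identified by recomputing the methods' t-test on the deposited log2 values and matching the p-value and fold change listed per transcript, columns of the authors' comparisons used only as a key. All 211 transcripts tried matched 1 probe, and 48 of 48 that could be checked gave the probe named elsewhere in the lists. The lists gave the probe name itself for 298 lncRNA and 857 mRNA probes, and matching added 93 and 66. In all, 1314 probes were named. Promoters are from RefSeq, GRCm38.p6, which had no entry for Gm16152. The rule for named genes took the pair, the other antisense transcripts inside Aff3, and for each of the pair the 5 most alike named mRNA and lncRNA probes, with fixed lists for the gene family, neighbours and cell types. Members and lists were chosen with earlier results of these data known. The number of arrays limits the precision, and 3 arrays against 3 cannot give a two-sided exact p below 0.1. Alternatives were other scaling, background correction, floor, filters, tests and the deposited values, replicate number or slide as a block, and leaving out each array.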

Additional observations from a re-analysis of the deposited data

How the results depend on the processing

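In siOCT4-POVPC vs siNT-POVPC, Aff3 and Gm16152 kept their direction and call under all 12 alternatives, with log2 fold changes of 1.40 to 3.13 and 1.48 to 2.19, and with each array left out (2.00 to 2.16 and 2.10 to 2.25). Over these alternatives and left-out arrays the number of probes called there ranged from 2191 to 5442 higher and 669 to 8614 lower, beside 3912 and 2225. In siOCT4-DMSO vs siNT-DMSO the counts were 2400 higher and 1196 lower, and ranged from 66 to 4320 and from 6 to 2802. In siNT-POVPC vs siNT-DMSO they were 3 and 1, and ranged from 0 to 1079 and from 0 to 1337, with 258 and 246 without siNT-DMSO replicate 1 and 229 and 168 without siNT-POVPC replicate 3.

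In siOCT4-DMSO vs siNT-DMSO, Aff3 moved to 1.37 with normexp background correction, run with an offset of 50, and to 2.51 with slide as a block. The 2.51 is also the value without siOCT4-DMSO replicate 3. Gm16152 moved to 1.40 with 75th percentile scaling and 1.00 with normexp. The cause of the moves with normexp and scaling was not tested. With arrays left out Aff3 ranged from 1.93 to 2.51 and Gm16152 from 1.52 to 1.70. For Aff3 in siOCT4-POVPC vs siOCT4-DMSO the value was 1.04 and called with slide as a block. That value sets the siOCT4-POVPC arrays against siOCT4-DMSO replicate 3 alone. With arrays left out the value was -0.032 to 0.56, negative without siOCT4-DMSO replicate 3. The difference of the siRNA effects was 0.61 (Aff3) and 0.41 (Gm16152) with slide as a block, and -0.46 to 0.13 for Aff3 with arrays left out. Gm16150 in siNT-POVPC vs siNT-DMSO, at 0.00, was -0.092 with 75th percentile scaling and -0.19 to 0.11 with arrays left out.

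The labels do not state whether the replicate numbers pair the samples. Same-numbered deviations correlated at 0.07, 0.08 and 0.10 in siOCT4-POVPC vs siNT-POVPC and at 0.15, 0.36 and -0.01 in siOCT4-DMSO vs siNT-DMSO. The values were 0.04, -0.01 and -0.18 in siNT-POVPC vs siNT-DMSO and -0.20, -0.03 and -0.06 in siOCT4-POVPC vs siOCT4-DMSO. Differently numbered arrays were not compared, so these values do not decide whether the samples are paired. With the replicate block 3607 probes were called higher and 1978 lower in siOCT4-POVPC vs siNT-POVPC, Aff3 stayed at 2.06 (adjusted p = 0.00259 from limma) and Gm16152 at 2.19 (adjusted p = 5.97e-05 from limma), and no call of the pair changed. The correlation of Aff3 and Gm16152 in siNT arrays ranged from -0.97 to -0.32 with arrays left out and from -0.86 (normexp) to -0.11 (75th percentile scaling) over other settings, and in siOCT4 arrays from -0.12 to 0.28 with arrays left out. That of the deviations ranged from -0.51 to 0.58 and was 0.50 without the 2 farthest arrays.

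Values within slide, the fits for the other antisense probes' correlations, Gm5099 and the correlation without siOCT4-DMSO replicate 3 were chosen after seeing the data. Each transcript has 1 spot per array, so the spread between spots is unknown. The lowest signal well above background was 8.73 to 15.1 per array, and the lowest Aff3 signal was 39.8.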
